A study of Mus musculus with 25 samples.

Results

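The comparison described here set 8 mammary tumours from female FVB mice carrying MMTV-Met and Trp53fl/+ (MetTrp53) against 2 pools of normal mammary tissue from Wild-Type FVB females. The arrays were chosen by their genotype labels alone and made up 10 of the 25 arrays of the series. The other arrays held 7 MMTV-Met tumours (Met) and 8 Trp53fl/+ tumours (Trp53). In the MetTrp53 mice the MMTV promoter, active in mammary epithelium, drives a transgene of Met, the receptor tyrosine kinase for hepatocyte growth factor, and 1 Trp53 allele, which encodes p53, is floxed for deletion by Cre. Cre is named in the series design for the MetTrp53 and Trp53 tumours, and the labels do not state its promoter. Normal pool 1 came from multiparous and pool 2 from nulliparous mice, and the number of mice in a pool is not stated. Of the 8 MetTrp53 tumours, 2 came from multiparous mice (tumour 1, an adenocarcinoma, and tumour 3, a poorly differentiated adenocarcinoma). The 6 from nulliparous mice comprised 3 spindloid tumours (2, 4 and 7), 1 poorly differentiated adenocarcinoma (5), 1 intermediate tumour (6) and 1 with no stated pathology (8). The labels do not say that each tumour came from a separate animal. In the sample titles the MetTrp53 tumours carry separate numbers. The titles of Trp53 tumours 2 and 3 share a number, as do those of Trp53 tumours 4 and 8. Whether a shared number means a shared animal is not stated. All arrays were treated as independent, so the p-values reflect variation among these arrays, part of which may be technical.

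MicroRNAs (miRNAs) are short RNAs that guide silencing complexes to messenger RNAs, mainly through bases 2 to 8 of the mature strand, called the seed. MiRNAs with one seed can share targets, and miRNAs encoded close together are often cut from one primary transcript. Normal mammary gland is a mixed tissue in which a ductal epithelium lies in a fat pad with vessels, nerves and connective tissue, and many miRNAs mark one of these cell types. In bulk RNA, fewer cells of a type and less of a miRNA per cell cannot be told apart.

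The mature sequences of miRNAs on which the results turn are printed because they show which of them share a seed, given in capitals. Of the 49 miRNAs that passed the test below, 37 were matched by name to RefSeq (GRCm38.p6). The set opens with the 2 largest rises with a RefSeq entry, of separate seeds, and then gives the members of the miR-17 cluster and its relatives.
miR-31-5p: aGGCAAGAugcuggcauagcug
miR-21-5p: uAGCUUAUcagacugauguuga
miR-20a-5p: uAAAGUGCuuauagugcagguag
miR-20b-5p: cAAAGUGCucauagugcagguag
miR-93-5p: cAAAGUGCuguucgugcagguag
miR-18a-5p: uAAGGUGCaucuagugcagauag
miR-19a-3p: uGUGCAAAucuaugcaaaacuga
miR-19b-3p: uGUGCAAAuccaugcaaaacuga
The first seed shared here, AAAGUGC, was carried by 3 miRNAs that rose and by miR-17-5p, which was tested and not called, and GUGCAAA by 2 that rose. The next set holds the miRNAs of the miR-99b cluster, together with miR-99a-5p, which carries the seed of miR-99b-5p and fell.
miR-99b-5p: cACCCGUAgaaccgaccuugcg
miR-99a-5p: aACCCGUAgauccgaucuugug
let-7e-5p: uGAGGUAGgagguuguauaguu
miR-125a-5p: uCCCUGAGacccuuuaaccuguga
The last set holds miRNAs that fell: a pair of muscle miRNAs, miR-378b, miR-29c-3p, and the miR-26 pair, whose seed is UCAAGUA.
miR-133b-3p: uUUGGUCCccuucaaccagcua
miR-206-3p: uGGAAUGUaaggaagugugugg
miR-378b: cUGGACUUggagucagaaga
miR-29c-3p: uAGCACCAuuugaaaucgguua
miR-26a-5p: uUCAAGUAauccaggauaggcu
miR-26b-5p: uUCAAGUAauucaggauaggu

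Each one-colour array carried probes for 1122 mouse miRNAs. The MetTrp53 arrays detected between 249 and 334 of them and the pools 274 and 331. Between MetTrp53 tumours, Pearson's r across the 330 miRNAs tested was 0.81 to 0.98, between a tumour and a pool 0.74 to 0.88, and between the pools 0.98. These correlations are across miRNAs, which are not independent replicates. The pools differed by a median of 0.15 on the log2 scale. All 5 miRNAs of the epithelial miR-200 family were detected in both pools. The liver miRNA miR-122-5p and the neural miR-124-3p were not detected on any of the 10 arrays. The pools also carried 5 of the 7 listed skeletal muscle miRNAs, and the level of miR-133b-3p was 12.43 in pool 1 and 12.84 in pool 2. Their part in each result on muscle miRNAs below was not tested. Levels are log2 values of array intensity after scaling of each array, with a floor at 3.60, and a difference of 1 is a 2-fold change. Levels of different miRNAs come from different probes and are not set against each other. The summed level of a list is the log2 of its members' added intensities on an array, untested members included. It mostly follows the brightest member and is not a measure of a cell type.

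MetTrp53 tumours differed from normal gland in 49 of 330 miRNAs tested (14.8 percent; limma, adjusted p under 0.05). Of these, 21 were higher in the tumours (6.36 percent of those tested) and 28 were lower (8.48 percent). The changes were 2-fold or more for 18 of the higher and 20 of the lower miRNAs. At an unadjusted p under 0.05 the count was 93. The median change was 0.12 over all tested miRNAs and 0.41 over the 160 detected on all 25 arrays. All 21 higher miRNAs lay above both medians. In 20 of the 21 higher miRNAs all 8 tumours lay above both pools, which held for 50 of all 330 (15.2 percent), and in 26 of the 28 lower ones all 8 lay below both pools, which held for 43 of 330 (13 percent). The exceptions were miR-677-3p, miR-101c and miR-129-2-3p, each with 1 tumour between or beyond the pools. All 49 kept their sign within slide 1 (tumour 1 against pool 1), within slide 3 (tumours 3 and 4 against pool 2), and when tumours were set against the pool of the same parity. Wherever all 8 tumours lay beyond both pools, that sign was already fixed, so it is not separate support. Without pool 1, 22 miRNAs were called, among them 3 of the 21 higher and 18 of the 28 lower, and without pool 2, 29, among them 9 and 19. With slide as a block 14 of the 21 and 23 of the 28 were still called. With the scaling percentile taken over all mouse probes, 3 were called higher and 42 lower. The median change of all tested miRNAs moved from 0.12 to 0. It moved further for the let-7 family, whose members were all detected on all 10 arrays (-0.21 to -0.72). That of the miR-17 cluster and its paralogs moved from 1.21 to 0.69.

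**Figure D1:**
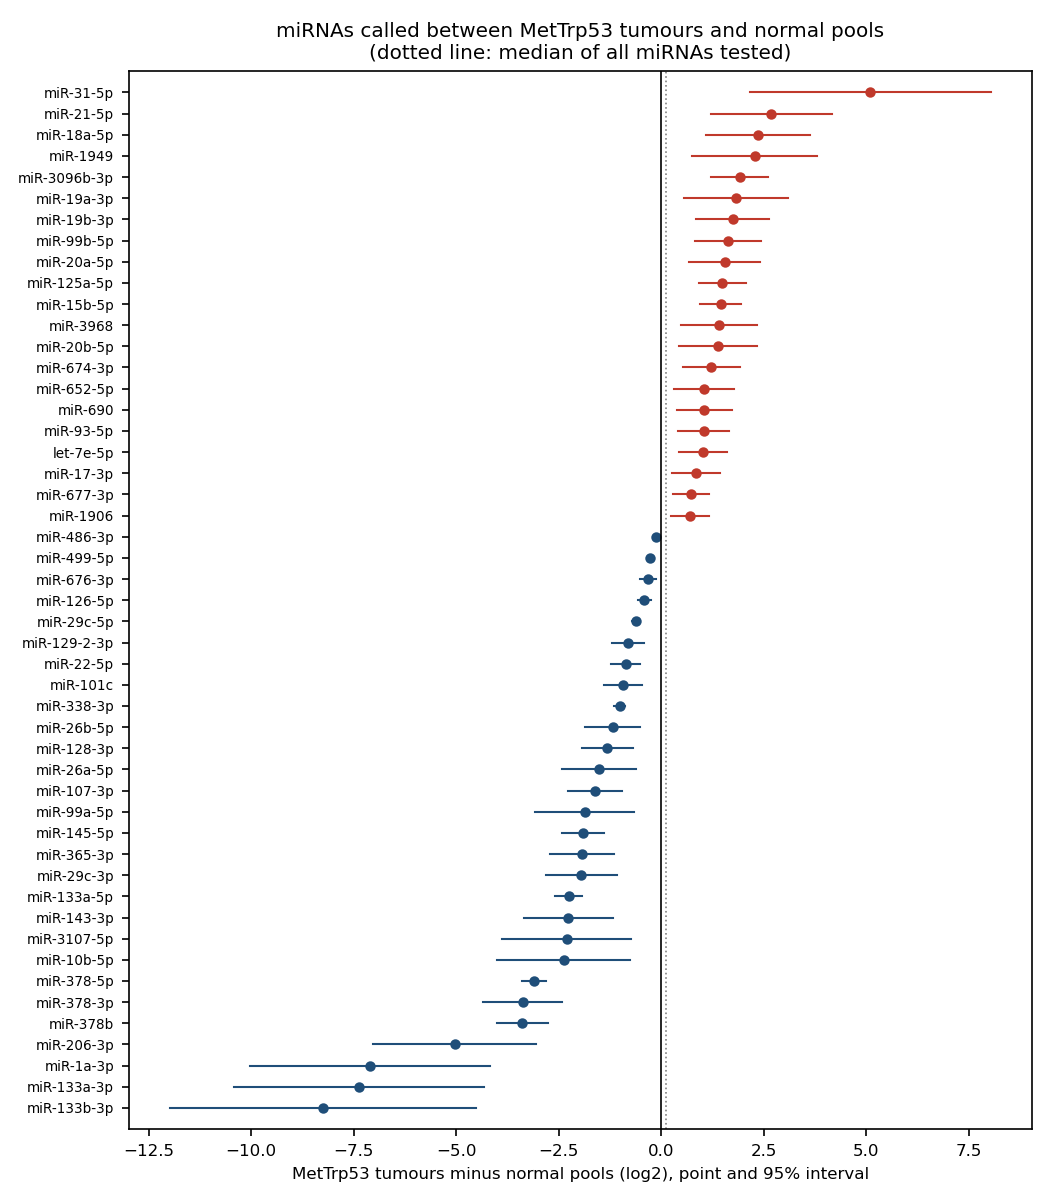
Difference between MetTrp53 tumours and normal pools (log2, horizontal axis) for each of the 49 called miRNAs, with its 95% confidence interval; red points are higher and blue points lower in tumours, and the dotted line is the median of all 330 miRNAs tested, 0.12. The points run from 5.10 for miR-31-5p to -8.25 for miR-133b-3p, and the widest intervals are those of miR-133b-3p, miR-133a-3p, miR-31-5p and miR-1a-3p.

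The largest rise was that of miR-31-5p, a miRNA linked to epithelial growth and to invasion in several carcinomas. Its level was 4.06 and 3.99 in the pools and had a lowest, median and highest value of 6.86, 9.40 and 10.77 in the tumours. Every tumour lay well above both pools, with tumour 5 the lowest and tumour 1 the highest, and the 2 groups did not overlap. The difference was 5.10 (SE 1.42, 95% confidence interval 2.16 to 8.04), a 34.3-fold rise, with a limma adjusted p of 0.0159. It was 6.70 within slide 1 and 4.35 within slide 3. With slide as a block the difference was 4.77 and the adjusted p 0.061, and with 1 pool left out the adjusted p was 0.161 or 0.127, so the call did not hold there. The other arm of the same hairpin, miR-31-3p, was detected in all 8 tumours (4.07 to 7.64) and in neither pool (both at 3.60). It was at least 5.60-fold higher in tumours, with a limma adjusted p of 0.0528, just outside the threshold. The hairpin lies at chr4:88910557-88910662 on the minus strand (GRCm38.p6), within the annotated lncRNA gene Gm49890.

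The level of miR-21-5p, among the miRNAs most often reported as raised in solid tumours, was 9.50 in pool 1 and 10.99 in pool 2. In the tumours it ran from 12.51 through a median of 12.89 to 13.41. The tumours lay close together, with an SD of 0.32, and all lay above both pools, while the pools themselves stood more than 1 apart. The difference was 2.69 (SE 0.71, limma adjusted p = 0.0126), a 6.44-fold rise. It was 3.66 against pool 1 within slide 1 and 2.04 against pool 2 within slide 3. Without pool 1 it was 1.94 and no longer called (adjusted p = 0.351), and without pool 2 it was 3.43 and called (0.0291). The gene lies at chr11:86584067-86584158 within Vmp1.

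**Figure D2:**
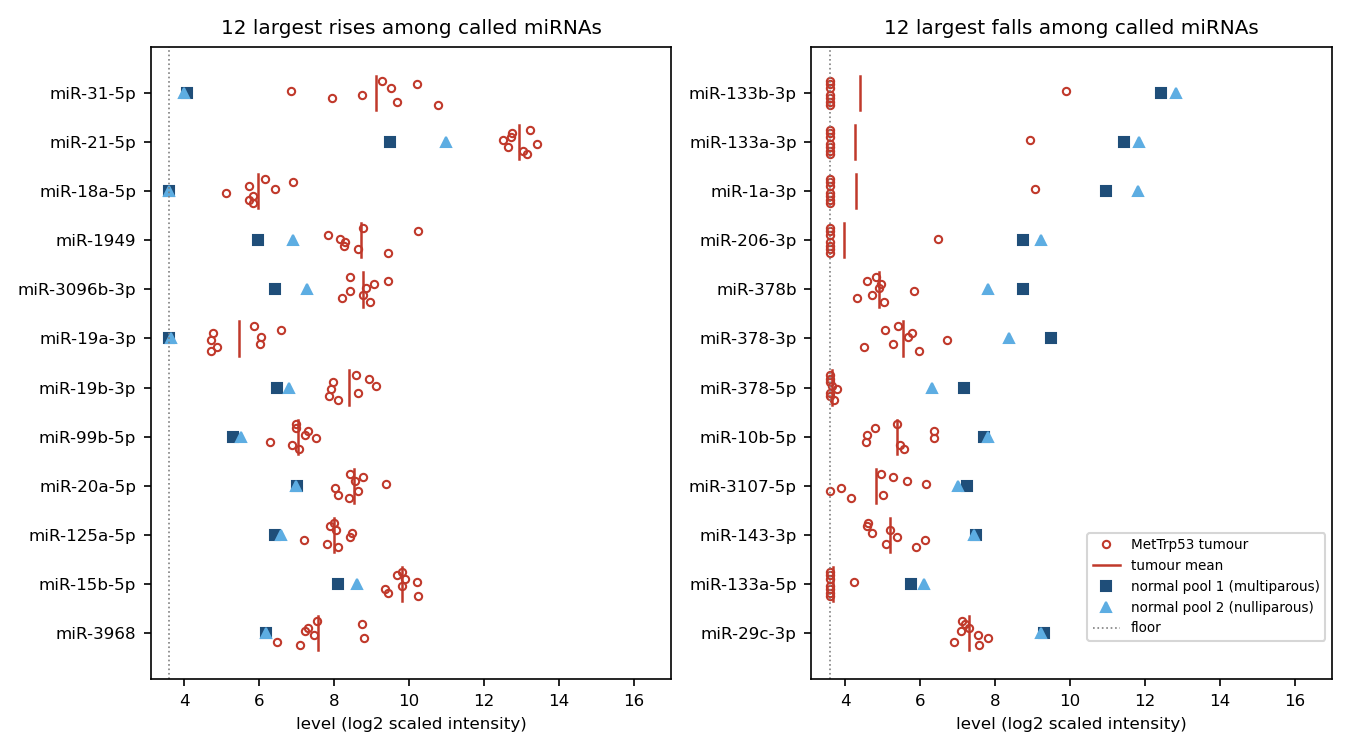
Levels (log2 scaled intensity) of the 12 miRNAs with the largest rise (left) and the 12 with the largest fall (right) among those called, with 1 red circle per MetTrp53 tumour, a line at their mean, and a square and a triangle for the 2 normal pools. Circles and pool symbols do not overlap in any row, and in the rows of 5 muscle miRNAs a lone circle, tumour 5, stands away from 7 at the floor.

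MiRNAs of the miR-17 cluster and its paralogs, which are targets of Myc and are linked to proliferation, were higher in tumours. Of 13 listed mature miRNAs, 12 were on the array and 10 tested. Of the 10, 6 rose, beside 6.36 percent of all tested, and none fell. The median change was 1.21, beside 0.12 over all tested and 0.41 over miRNAs detected on all 25 arrays. All 10 lay above 0 under each of the 7 other scalings and floors tried, but the calls held less well. Of the 6, only miR-18a-5p was still called with the percentile over all mouse probes, none without pool 1, and only miR-19b-3p without pool 2. The level of miR-18a-5p was 3.60 in both pools, at the floor, and 5.10, 5.84 and 6.91 as the lowest, median and highest of the tumours. All 8 tumours lay above the pools, tumour 4 being the lowest and tumour 7 the highest. Its difference was 2.37 (SE 0.61, limma adjusted p = 0.0103), and the size depends on the floor.

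The pair with the seed GUGCAAA rose in both members. The level of miR-19b-3p was 6.48 and 6.80 in the pools and 7.85, 8.33 and 9.12 (lowest, median, highest) in the tumours, a difference of 1.74 (SE 0.43, limma adjusted p = 0.00662). That of miR-19a-3p was 3.60 and 3.64 in the pools and 4.71, 5.36 and 6.59 in the tumours, a difference of 1.83 (SE 0.61, 0.0459). Neither overlapped the pools, and in both tumours 5, 7 and 3 were the 3 highest. The sequences of the 2 differ by few bases, so a probe for one may also bind the other. The same holds for miR-20a-5p and miR-20b-5p, for the miR-26 pair, and for miR-107-3p and miR-103-3p. The call of miR-19a-3p was lost with slide as a block (1.64, limma adjusted p = 0.0832).

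Of the 3 called miRNAs with the seed AAAGUGC, miR-20a-5p had the largest rise. Its level was 7.00 and 6.99 in the pools and 8.02, 8.49 and 9.38 in the tumours, a difference of 1.55 (SE 0.42, limma adjusted p = 0.0136). Tumour 5 was the highest and no tumour reached down to the pools. The rise was 1.38 (SE 0.46) for miR-20b-5p, of the paralogous cluster on the X chromosome, and 1.04 (SE 0.30) for miR-93-5p, which lies in the gene of the replication factor Mcm7. The call of miR-20b-5p was lost with slide as a block (1.35, limma adjusted p = 0.0747). The passenger strand miR-17-3p rose by 0.85 (SE 0.28). Its partner miR-17-5p, which also carries the seed AAAGUGC, stood at 3.60 in both pools and between 3.60 and 4.30 in tumours and was not called (0.31, SE 0.26), and miR-92a-3p was not called either (0.69, SE 0.39). The genes of miR-17-3p, miR-18a-5p, miR-19a-3p, miR-20a-5p and 1 copy of miR-19b-3p span chr14:115043671-115044391, and all 5 of these rose.

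A second group of neighbours also rose. The miRNAs miR-99b-5p, let-7e-5p and miR-125a-5p lie within chr17:17830194-17830879 inside the annotated gene Spaca6, and each rose. The level of miR-99b-5p was 5.29 and 5.52 in the pools and 6.30, 7.02 and 7.52 in the tumours (difference 1.62, SE 0.39, limma adjusted p = 0.00527). That of miR-125a-5p was 6.42 and 6.58 in the pools and 7.20, 8.02 and 8.47 in the tumours (1.49, SE 0.28, 0.000689). That of let-7e-5p was 7.88 and 8.40 in the pools and 8.51, 9.12 and 9.73 in the tumours (1.02, SE 0.28, 0.0151). For all 3 the poorly differentiated tumour 3 was the lowest of the 8 and still lay above both pools. The call of let-7e-5p was lost with slide as a block (0.99, limma adjusted p = 0.0531).

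No other listed relative of these 3 was called higher. The level of miR-99a-5p, which shares its seed with miR-99b-5p, was 8.60 and 9.20 in the pools and 6.35, 6.85 and 8.47 in the tumours. All tumours lay below the pools, tumour 4 being nearest to them. The difference was -1.87 (SE 0.58, limma adjusted p = 0.033). With slide as a block the adjusted p was 0.0742, and without pool 1 or pool 2 it was 0.141 or 0.31, so the call did not hold there. Of the 5 listed members of the miR-99, miR-100 and miR-125 families, 2 rose and 1 fell, with a median of 0.10. Of all tested, 6.36 percent rose and 8.48 percent fell. In the let-7 family, known for restraining growth and stem cell programmes, 1 of 9 rose (let-7e-5p), none fell, and the median was -0.21.

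The level of miR-15b-5p, which targets cell cycle and survival genes and lies in the condensin gene Smc4, was 8.09 and 8.62 in the pools and 9.37, 9.81 and 10.25 in the tumours. The 8 tumours formed a narrow band above both pools. The difference was 1.45 (SE 0.24, limma adjusted p = 0.000161). It was the only called member of the 7 listed of the miR-15 and miR-16 family, whose median change was 0.49 and, with the percentile over all mouse probes, -0.02. Its relatives miR-195-5p (-1.80, SE 0.80) and miR-497-5p (-1.41, SE 0.75) were not called.

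The rest of the rises fell on miRNAs of less known function. The level of miR-1949 was 5.96 and 6.89 in the pools and 7.84, 8.45 and 10.23 in the tumours (2.28, SE 0.74, limma adjusted p = 0.042). That of miR-3096b-3p was 6.43 and 7.27 in the pools and 8.20, 8.80 and 9.44 in the tumours (1.91, SE 0.34, 0.000361). That of miR-3968 was 6.17 and 6.18 in the pools and 6.48, 7.37 and 8.78 in the tumours (1.40, SE 0.45, 0.0394). None of the 3 overlapped the pools, and tumour 7 was highest for the former 2. The call of miR-1949 was lost with slide as a block (2.06, limma adjusted p = 0.0929). Smaller rises, from 0.71 to 1.23, were those of miR-674-3p, miR-690, miR-652-5p, miR-677-3p and miR-1906. Tumour 2 lay between the pools for miR-677-3p (4.19).

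In the list of tumour-associated miRNAs, 2 of 6 rose, miR-31-5p and miR-21-5p, beside 6.36 percent of all tested, with a list median of 2.37. The other 4 also lay above 0 and were not called. They were miR-31-3p, miR-221-3p (2.26, SE 0.96), miR-222-3p (2.10, SE 0.85) and the hypoxia-induced miR-210-3p (2.01, SE 0.82), the last 3 with limma adjusted p from 0.106 to 0.121. The level of miR-221-3p, which targets the cell cycle inhibitor p27, was 4.46 and 5.33 in the pools and 5.14, 7.51 and 8.30 in the tumours. Tumours 3 and 5 stayed near pool 2 for it and the other 6 lay clearly above.

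The largest falls were those of muscle miRNAs. Of the 7 listed skeletal muscle miRNAs 5 were tested and all 5 fell, beside 8.48 percent of all tested, with a median change of -7.10. The heart and slow muscle miRNAs miR-208a-3p and miR-208b-3p were not detected on any of the 10 arrays. The level of miR-133b-3p was 12.43 and 12.84 in the pools, and in the tumours 9.90 in tumour 5 and 3.60 in the other 7. That of miR-133a-3p was 11.43 and 11.84 in the pools, 8.93 in tumour 5 and 3.60 in the other 7. That of miR-1a-3p was 10.96 and 11.81 in the pools, 9.07 in tumour 5 and 3.60 in the other 7. Tumour 5, a poorly differentiated adenocarcinoma, thus carried muscle miRNAs at levels between those of the pools and the other tumours, which all sat at the floor.

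The differences were -8.25 (SE 1.80, limma adjusted p = 0.00241) for miR-133b-3p, -7.37 (SE 1.47, 0.000949) for miR-133a-3p and -7.10 (SE 1.41, 0.000949) for miR-1a-3p. Leaving out tumour 5 gave -9.04, -8.04 and -7.79. The level of miR-206-3p, specific to skeletal muscle, was 8.75 and 9.24 in the pools, 6.48 in tumour 5 and 3.60 in the other 7, a difference of -5.04 (SE 0.96, limma adjusted p = 0.000751). The passenger strand miR-133a-5p fell by 2.25 (SE 0.16). The heart and slow muscle miRNA miR-499-5p was at least 1.03-fold lower, with no tumour array above background (limma adjusted p = 0.000309). The genes of miR-206-3p and miR-133b-3p lie together at chr1:20679010-20682887 in the muscle lncRNA gene Lincmd1. The summed level of the list was 13.39 and 13.90 in the pools and 6.41 to 11.04 in the tumours. Since 7 of 8 tumours were at the floor, the sizes of these falls are set by the floor, and over the alternatives the fall of miR-133b-3p had extremes of -10.77 and -6.23.

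Of the 6 miRNAs listed for fat, all tested, 3 fell, beside 8.48 percent of all tested, and the median change was -2.36. The level of miR-378-3p, encoded in an intron of the metabolic coactivator gene Ppargc1b, was 9.49 and 8.37 in the pools and 4.51, 5.55 and 6.71 in the tumours. That of its passenger strand miR-378-5p was 7.17 and 6.31 in the pools and 3.60, 3.60 and 3.78 in the tumours. That of the related miR-378b was 8.75 and 7.81 in the pools and 4.33, 4.86 and 5.83 in the tumours. In all 3, pool 1 lay above pool 2, both lay far above every tumour, and tumour 4 was the highest of the tumours.

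The differences were -3.37 (SE 0.46, limma adjusted p = 1.27e-05) for miR-378-3p, -3.10 (SE 0.14) for miR-378-5p and -3.39 (SE 0.30) for miR-378b, and these 3 were called in each alternative that tested them. The miR-378 miRNAs are abundant in muscle as well as in fat. The third fall in the list was that of miR-365-3p, linked to brown fat, at 8.73 and 8.28 in the pools and 6.02, 6.62 and 7.17 in the tumours (-1.93, SE 0.37, limma adjusted p = 0.00084). Its neighbour miR-193b-3p was at -2.79 (SE 0.97) and not called (0.0579); tumour 3, at 8.83, lay between the pools (10.15 and 8.53). The adipose miRNAs miR-455-5p (0.087, SE 0.11) and miR-455-3p (-0.36, SE 0.55) were not called. The summed level of the list was 11.27 and 10.14 in the pools and 7.68 to 9.40 in the tumours, and the part of fat content in these falls was not tested.

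Among miRNAs of vessels and contractile cells, both tested miRNAs of the smooth muscle and myoepithelial list fell, beside 8.48 percent of all tested. The level of miR-143-3p was 7.49 and 7.44 in the pools and 4.60, 5.14 and 6.12 in the tumours (-2.27, SE 0.53, limma adjusted p = 0.00418). That of miR-145-5p was 5.43 and 5.74 in the pools, at the floor in 5 tumours, and at most 3.97 (-1.91, SE 0.25, 6.55e-06). The adenocarcinomas 1 and 3 were the highest tumours for both, and no tumour reached the pools. Tumour 5, also an adenocarcinoma, stood at 4.73 for miR-143-3p and at the floor for miR-145-5p. The summed level of the list was 7.95 and 7.98 in the pools and 5.92 to 6.77 in the tumours. Of the 2 endothelial miRNAs, miR-126-5p fell by 0.41 (SE 0.08), at a level close to the floor, and miR-126-3p was at -1.58 (SE 0.58) and not called (limma adjusted p = 0.0762). The level of miR-126-3p was 11.04 and 10.73 in the pools and 8.40, 9.42 and 10.30 in the tumours, with no overlap. The summed endothelial level was 11.05 and 10.75 in the pools and 8.45 to 10.31 in the tumours, and the part of these cell types was not tested.

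The level of miR-10b-5p, a miRNA of the HoxD locus that is also listed as mesenchymal, was 7.72 and 7.82 in the pools and 4.55, 5.43 and 6.39 in the tumours (-2.38, SE 0.78, limma adjusted p = 0.0437). It was the only called member of 6 tested from the mesenchymal list, beside 8.48 percent of all tested called lower. The list median was -0.34. The summed mesenchymal level was 10.23 and 11.04 in the pools and 8.95 to 12.13 in the tumours, so the groups overlapped. The level of miR-3107-5p, abundant in blood and muscle, was 7.26 and 7.02 in the pools and 3.60, 4.98 and 6.15 in the tumours (-2.30, SE 0.76, 0.0446). It was looked up in RefSeq as miR-486b-5p and had no match there by name. Tumour 3 was at the floor for it and tumour 5 the highest. Neither was called with slide as a block (limma adjusted p = 0.0929 for miR-10b-5p and 0.109 for miR-3107-5p). Of 4 tested miRNAs of the erythroid list only miR-486-3p was called lower, again beside 8.48 percent of all tested. It was above background on no tumour array and had no measurable fold. The summed level of the erythroid list was 11.19 and 10.36 in the pools and 8.30 to 11.03 in the tumours.

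**Figure D3:**
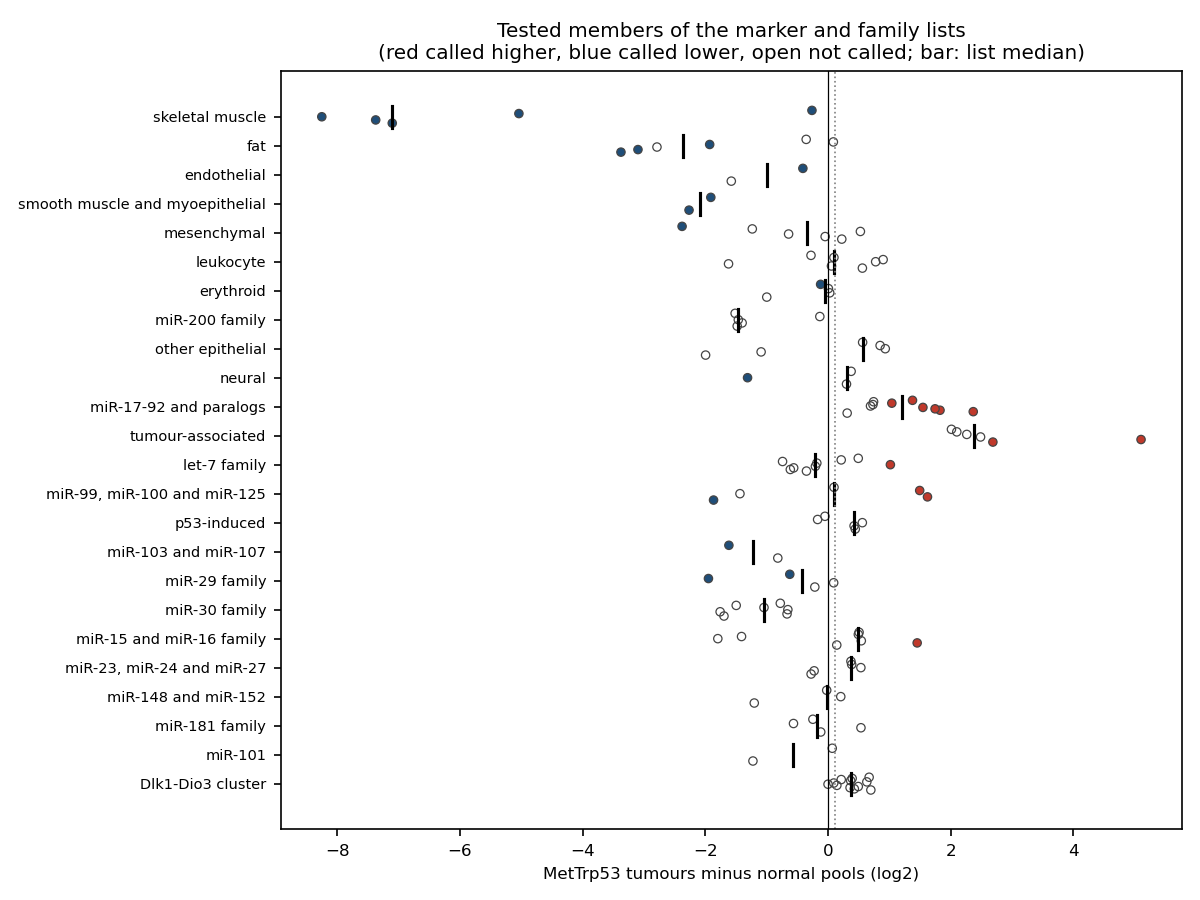
Difference between MetTrp53 tumours and normal pools (log2) for each tested miRNA of the marker and family lists, filled red where called higher, blue where called lower and open where not called, with a bar at the list's median and a dotted line at the median of all tested miRNAs. The skeletal muscle list has the lowest median, -7.10, and the tumour-associated list the highest, 2.37.

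The level of miR-29c-3p, which targets collagen and other matrix genes, was 9.31 and 9.22 in the pools and 6.91, 7.24 and 7.82 in the tumours (-1.95, SE 0.42, limma adjusted p = 0.00206). The tumours spanned less than 1, all below the pools, and the call held in each alternative. Of the 4 tested miRNAs of the miR-29 family 2 fell, beside 8.48 percent of all tested. The other that fell was the passenger strand miR-29c-5p, at least 1.32-fold lower with no tumour array above background (limma adjusted p = 1.68e-11). Both come from a hairpin at chr1:195037547-195037634.

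The level of miR-26a-5p, which restrains the methyltransferase gene Ezh2, was 10.21 and 10.58 in the pools and 8.17, 9.06 and 9.53 in the tumours (-1.52, SE 0.44, limma adjusted p = 0.0194). That of miR-26b-5p was 8.38 and 8.79 in the pools and 6.82, 7.36 and 8.01 in the tumours (-1.18, SE 0.32, 0.0136). In both all 8 tumours lay below both pools. The call of miR-26a-5p was lost with slide as a block (-1.32, limma adjusted p = 0.0519). Their 3 gene copies lie in Ctdsp1, Ctdsp2 and Ctdspl, which encode related phosphatases. The level of miR-107-3p, in the pantothenate kinase gene Pank1, was 8.92 and 8.13 in the pools and 6.24, 6.81 and 7.62 in the tumours (-1.62, SE 0.32, 0.000949). Its near twin miR-103-3p was at -0.82 (SE 0.30) and not called (0.0762). The level of miR-128-3p, best known from brain, was 5.42 and 5.63 in the pools and 3.74 to 4.73 in the tumours (-1.31, SE 0.30).

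The remaining called falls rested on levels near the floor. They were those of miR-338-3p (-1.01), miR-101c (-0.94), miR-22-5p (-0.86), miR-129-2-3p (-0.80) and miR-676-3p (-0.33). In 11 of the 28 lower miRNAs the tumour mean lay within 0.2 of the floor, and 12 were detected on 1 to 7 of the 8 tumour arrays and 3 on none. There the floor limits the spread that the tumours can show. For miR-101c tumour 3 stood at 4.92, above both pools (4.60 and 4.80). MiRNAs were tested if detected on 7 or more of the 23 tumour arrays of any genotype or in both pools. Of the 28 lower ones, 5 entered through the pools alone, so the filter favoured lower values in tumours among these 5. The other 23 also passed on the tumour arrays of the 3 genotypes. Of the 28, 15 were detected on fewer than 7 MetTrp53 arrays but in both pools. All 21 higher miRNAs were detected on all 8 tumour arrays and both pools.

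The miR-200 family, which keeps cells epithelial by targeting Zeb1 and Zeb2, varied widely among the tumours. None of its 5 members was called, and 5 of the 10 miRNAs with the largest SD over the 8 tumours were the members of this family. The others of the 10 were miR-205-5p and miR-96-5p, both epithelial, and 3 muscle miRNAs. The level of miR-200c-3p was 7.40 and 7.13 in the pools. It was 9.64 and 9.61 in the poorly differentiated adenocarcinomas 3 and 5, and 7.09 in the adenocarcinoma 1. It was 3.60, 3.60 and 4.71 in the spindloid tumours 2, 4 and 7, 4.42 in the intermediate tumour and 3.76 in the tumour of no stated pathology. The poorly differentiated adenocarcinomas thus lay above both pools and the spindloid and intermediate tumours far below them.

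The mean difference from normal was -1.46 (SE 1.84, 95% confidence interval -5.27 to 2.35) for miR-200c-3p, which the spread leaves undetermined in sign. The level of miR-200b-3p followed the same order, with 9.73 and 9.16 in tumours 3 and 5 and 3.60 in tumour 2. Without the spindloid and intermediate tumours the differences of miR-200c-3p, miR-200b-3p and miR-141-3p were 0.26, 0.17 and 1.07. Tumour 8, of no stated pathology, was kept there beside the adenocarcinomas, so these are not the differences of the adenocarcinomas alone. The level of miR-205-5p, of basal and myoepithelial cells, was 7.54 and 7.66 in the pools, 8.40 and 9.20 in tumours 3 and 5, and 3.60 in tumours 2, 4 and 8. The epithelial miR-203-3p was above the floor only in tumour 3 (5.28; pools 5.10 and 4.70). The summed level of the miR-200 family was 9.14 and 9.02 in the pools and 5.92 to 11.53 in the tumours, and no test was made between pathologies.

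**Figure D4:**
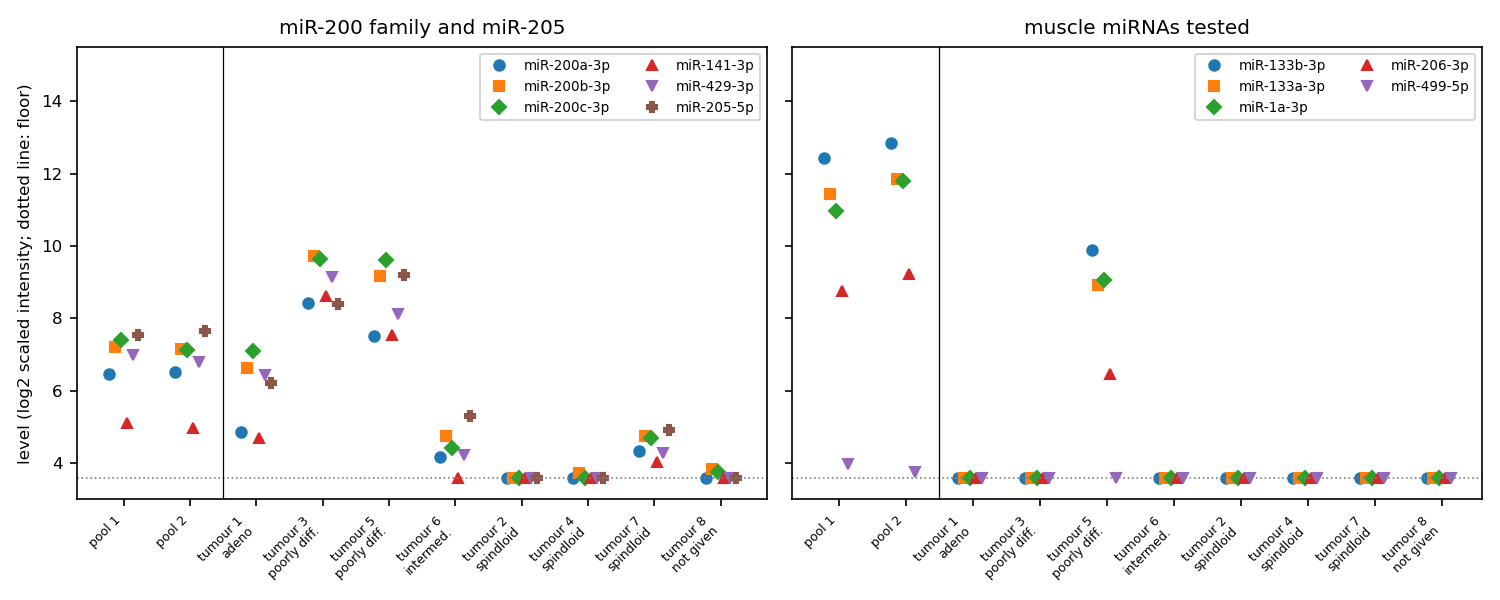
Levels (log2 scaled intensity) of the miR-200 family and miR-205-5p (left) and of the tested muscle miRNAs (right) in the 2 pools and in each MetTrp53 tumour, ordered by pathology; the dotted line is the floor at 3.60. Tumours 3 and 5 stand above the pools for the miR-200 family, the spindloid tumours 2 and 4 lie at or near the floor and tumour 7 lies between 4.04 and 4.91, and tumour 5 is the one tumour with muscle miRNAs above the floor.

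None of the 5 tested p53-induced miRNAs was called. The level of miR-34a-5p, a direct p53 target, was 6.24 and 6.58 in the pools and 6.02, 6.90 and 7.81 in the tumours, which overlapped the pools (0.44, SE 0.47; -0.072 with the percentile over all mouse probes). None of the 7 tested miRNAs of the miR-30 family was called, although all 7 lay below 0 under each scaling and floor tried (median -1.04); the level of miR-30a-5p was 8.69 and 8.47 in the pools and 5.70, 6.72 and 8.36 in the tumours (-1.70, SE 0.83, limma adjusted p = 0.19). None of the 7 leukocyte miRNAs was called, with a median of 0.10 and summed levels of 8.89 and 10.01 in the pools and 9.57 to 10.58 in the tumours. The level of miR-223-3p, of granulocytes and monocytes, was 7.81 in pool 1 and 9.28 in pool 2, so the pools themselves differed, and 8.00, 9.83 and 10.07 in the tumours. The lymphocyte miR-150-5p was 4.60 and 5.89 in the pools and at the floor in 7 tumours (-1.62, SE 0.71, 0.133). In the Dlk1-Dio3 cluster, an imprinted group of miRNAs, 12 of 54 listed were tested and none was called (median 0.38). No miRNA of the miR-23, miR-24 and miR-27, miR-148 and miR-152, miR-181 or miR-101 lists was called, with medians of 0.37, -0.02, -0.18 and -0.58. Of 3 tested neural miRNAs only miR-128-3p fell, beside 8.48 percent of all tested.

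Whether these differences were particular to the combined genotype was examined by setting MetTrp53 tumours against Met and against Trp53 tumours in the same fit. No miRNA passed the threshold in either contrast (0 percent of 330, limma), with 61 at an unadjusted p under 0.05 against Met and 23 against Trp53. Against normal, 41 miRNAs were called in Met tumours (12.4 percent) and 44 in Trp53 tumours (13.3 percent); all 3 comparisons share the same 2 pools. The level of miR-31-5p was 9.13 ± 1.26 (SD, n = 8) in MetTrp53, 5.57 ± 2.02 (n = 7) in Met and 8.40 ± 2.25 (n = 8) in Trp53 tumours. MetTrp53 tumours were thus higher than Met tumours by 3.55 (95% confidence interval 1.63 to 5.48; limma adjusted p = 0.058), outside the threshold, and the difference from Trp53 tumours was 0.73 (-1.13 to 2.59). The level of miR-34a-5p was 6.86 ± 0.65 in MetTrp53, 8.03 ± 0.77 in Met and 6.66 ± 0.41 in Trp53 tumours, a difference of -1.18 from Met (-1.82 to -0.54, adjusted p = 0.058). That of miR-30a-5p differed from Met by -2.14 (-3.27 to -1.01, 0.058).

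The differences of miR-21-5p from normal were 2.69 in MetTrp53, 1.22 in Met and 2.49 in Trp53 tumours. Those of miR-99b-5p were 1.62, 0.87 and 2.25, and those of miR-125a-5p 1.49, 0.93 and 2.07. Those of miR-378-3p were -3.37, -3.71 and -3.36, and those of miR-133b-3p -8.25, -7.71 and -7.49. A p above the threshold does not show that the genotypes were alike. The count against Met depended on the arrays kept, as it was 25 without tumour 3 and 11 without tumour 5. It also moved with some changes of processing, whose counts are given in the last section.

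**Figure D5:**
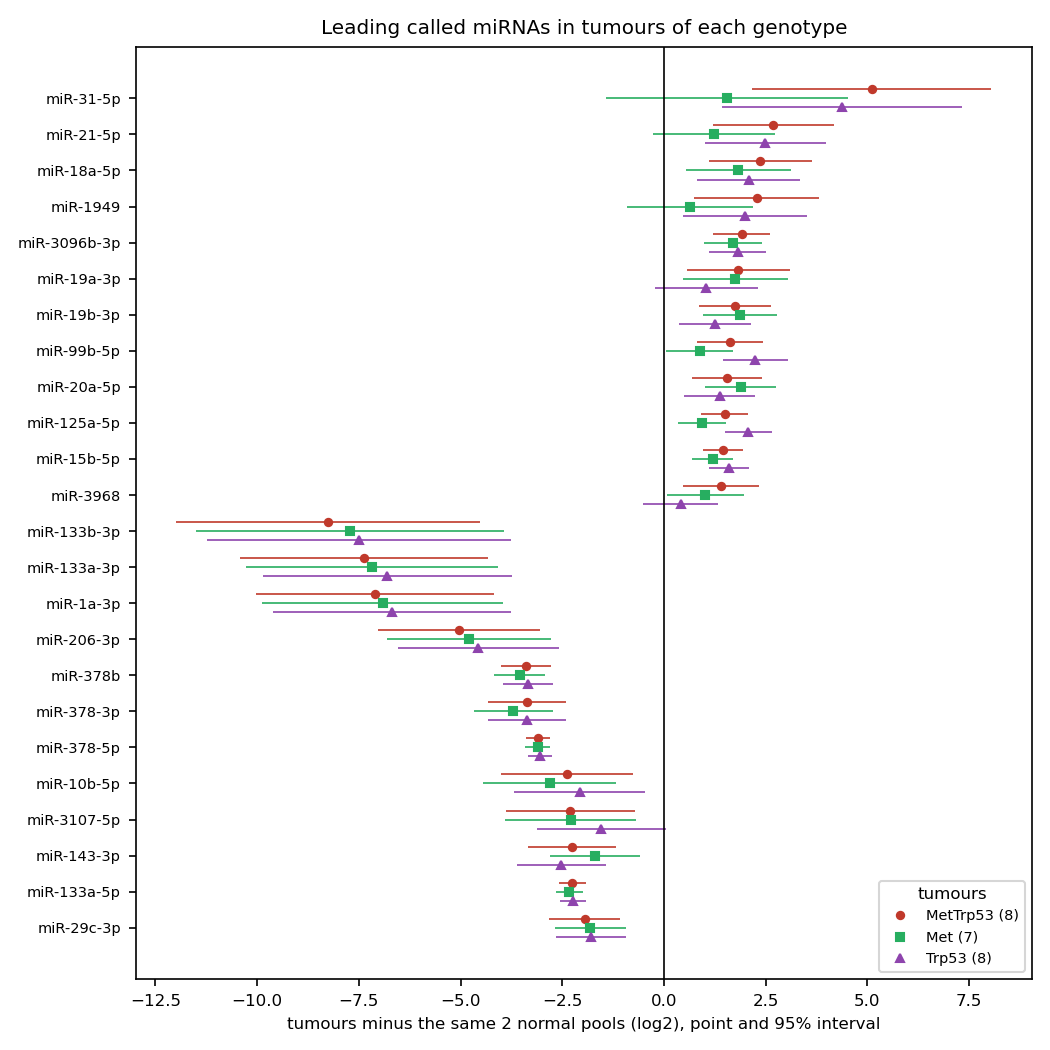
Difference from the same 2 normal pools (log2) with 95% confidence intervals for the 24 leading called miRNAs in MetTrp53 (circles), Met (squares) and Trp53 (triangles) tumours. For miR-31-5p the points lie at 5.10, 1.55 and 4.37, while for miR-378-3p and the muscle miRNAs the 3 points lie close together.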

How the data were processed

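Total RNA from snap-frozen tissue was labelled with Cy3 and hybridised on 1-colour Agilent arrays, as the labels' protocols state. The deposited scanner files hold intensity values per spot from Agilent Feature Extraction 10.7.3.1, background-subtracted and not normalised between arrays, per the file headers. The authors also deposited log2 values per spot (column medians 1.72 to 1.91); the submitters' processing notes name RMA, and how that table was centred is not known. It served as an alternative.

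Processed signals were averaged over the spots of each probe. They were divided by each array's 75th percentile over the 221 probes well above background on all 25 arrays (percentiles 278.9 to 908.9 intensity units). The values were floored at 0.0212 of that percentile, taken to log2 with 1 common constant added, and averaged over the probes of each miRNA. Testing required detection on 7 or more of the 23 tumour arrays of all 3 genotypes, or in both pools. The groups were compared with limma 3.58.1 in R 4.3.3 (lmFit, eBayes; 4 groups, 25 arrays) and Benjamini-Hochberg adjustment over 330 miRNAs; the procedure was tested on simulated data. Array number limits the precision. Slides and scan days were read from the file headers. The normexp alternative used the median signal. Replicates were numbered in accession order. Where no array of a group was above background, the fold is a bound against the higher of the lowest signal above background and the miRNA's own.

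Members, lists and tests were chosen with earlier results of these data known. Named are called miRNAs (array values for the 12 largest changes each way), members of the lists, and the 10 with the largest SD over tumours; per-array values of other named miRNAs were added after they were seen. Coordinates are those of RefSeq GRCm38.p6.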

Additional observations from a re-analysis of the deposited data

Results flagged for a closer look

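Among the 73 miRNAs whose values were examined in the 8 MetTrp53 tumours, 13 had 1 tumour far from the other 7, by a gap exceeding Dixon's 95% critical value. Chance alone flags about 1 in 20 such groups, and in many of the 13 the other tumours all sat at the floor of 3.60, where any raised value stands apart. In tumour 5 these were the muscle miRNAs miR-133b-3p (9.90), miR-1a-3p (9.07), miR-133a-3p (8.93), miR-206-3p (6.48) and miR-133a-5p (4.24), with the other 7 at 3.60. In tumour 3 they were miR-203-3p (5.28), miR-101c (4.92) and miR-338-3p (3.81), again with the other 7 at 3.60. Tumour 4 stood highest for miR-155-5p (6.60, others 4.45 to 5.26), miR-378b (5.83, others 4.33 to 5.03), miR-22-5p (4.31, others 3.60 to 3.80) and miR-150-5p (3.78, others at 3.60). Tumour 7 stood highest for miR-676-3p (3.67, others at 3.60). No named miRNA passed the test of the difference between MetTrp53 and Met or Trp53 tumours. Of 57 viral miRNAs on the array, the MetTrp53 arrays detected 3 to 7 and the pools 5 to 8.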

How the results depend on the processing

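Of 29 alternatives, 45 of the 49 called miRNAs kept their sign in each one that tested them, and 11 were also called in each: miR-1a-3p, miR-133a-3p, miR-133a-5p, miR-133b-3p, miR-206-3p, miR-378-3p, miR-378-5p, miR-378b, miR-29c-3p, miR-365-3p and miR-3096b-3p. The number called was 30 with normexp (13 higher, 17 lower), 30 without a detection filter (6 higher), 30 over miRNAs detected on all 25 arrays (12 lower) and 32 with only the spindloid tumours (8 higher). The percentile over all mouse probes gave 45 (3 higher, 42 lower), a floor 2 times higher left 11 higher of 35, and leaving out the spindloid and intermediate tumours left 13 higher. Leaving out 1 array gave 22 to 53 calls, with 3 to 25 higher; the lowest were those without pool 1 (22, of which 3 higher) and pool 2 (29, of which 9 higher). With slide as a block 38 were called, 37 of them among the 49; miR-31-5p, miR-1949, miR-19a-3p, miR-20b-5p, let-7e-5p, miR-10b-5p, miR-26a-5p, miR-99a-5p and 4 others lost the call.

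Against Met, 0 calls became 13 with the total gene signal, 16 with the authors' table, 7 with a floor 4 times lower, 6 over miRNAs detected on all arrays, and 0 to 25 on leaving out 1 array (25 without tumour 3, 11 without tumour 5). Signs that turned with normexp were those of miR-126-5p (0.13), miR-486-3p (0.074), miR-676-3p (0.064) and miR-141-3p (0.15). Over the alternatives miR-141-3p ran from -1.68 to 1.07, so its sign was undetermined. It was also at 0.077 with the higher floor, 0.14 with slide as a block and 0.025 with parity as a covariate. It was at 1.07 without spindloid and intermediate tumours and, on leaving out 1 array, between -0.66 and 0.054 (above 0 without tumour 2, 4, 6 or 8). With the higher floor miR-499-5p, miR-126-5p, miR-486-3p and miR-676-3p were at 0. Leaving out the spindloid and intermediate tumours, with tumour 8 kept, turned miR-200b-3p (0.17) and miR-200c-3p (0.26). Spindloid tumours alone turned miR-96-5p (-0.32), and the all-probe percentile turned miR-34a-5p (-0.072). The cause was not tested. Taking log2 per spot (48 calls), centring on always-detected miRNAs, parity-matched values and the count without miRNAs tested through 1 side only (44) were chosen after seeing the data. No paired analysis was possible because replicate numbers only follow accession order; shared slides and parity were used instead, as the block and as the within-slide and parity-matched values.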
